A study of Homo sapiens with 18 samples.

Results

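Surface markers of inflammatory fibroblasts were examined as chromatin loci in Ccd18-Co, an established line of human colon fibroblasts. The 10 genes were PDPN, THY1, FAP, CA12, ICAM1, VCAM1, ENG, NT5E, CD44 and TNFRSF11B. The paper uses CA12 to name a state of universal fibroblasts. A peak belonged to a gene when it overlapped the gene body, or the 10 kb before the first base of the gene in the GENCODE annotation, by at least 1 bp. This gave 126 of the 334857 peaks of the count table, and the 10 genes were among 19188 protein-coding genes with a peak in that window. CD44 had 29 such peaks, CA12 19, ENG 18, NT5E 14, FAP 11, VCAM1 9, PDPN 8, ICAM1 7, TNFRSF11B 6 and THY1 5. The ICAM1 window also held peaks of its neighbours ICAM4 and ICAM5, and accessibility in a shared peak cannot be assigned to any of these genes.

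Fibroblasts in inflamed gut display surface proteins that are used to identify and sort them. PDPN and THY1 are membrane glycoproteins used for this, and FAP is a serine protease of activated fibroblasts. Adhesion receptors such as ICAM1 and VCAM1 bind leukocyte integrins, CD44 binds hyaluronan, ENG is a co-receptor of the TGF-β family, NT5E makes adenosine, CA12 hydrates carbon dioxide at the cell surface, and TNFRSF11B (osteoprotegerin) is a secreted decoy receptor for RANKL. ATAC-seq measures how often a transposase cuts a stretch of DNA, so it reads whether promoters and enhancers of these genes were open and not how much RNA or protein was made.

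The 18 libraries fell into 3 groups of 6, which were taken from the sample titles. Unstimulated cells received no cytokine mix, and the labels do not say whether they received DMSO or the same feeding schedule. The other groups received 3 pulses of a mix of TNF, OSM and IL-17A at 10 ng/ml each and IL-1B at 0.1 ng/ml, each pulse lasting 72 h and followed by 96 h of recovery. After 1 week of rest these cells were given either the solvent DMSO or 250 nM belinostat, a histone deacetylase inhibitor, for 5 days, and they were collected 2 weeks later. The doses here are those of the labels. The paper gives the same IL-1β concentration in the figure legend for this experiment and a lower one in its methods. Its belinostat concentration is higher than that of the labels. All libraries came from a single cell line, and nothing in the labels says that the 6 libraries of a group were separate cultures, so that the p-values measure the spread between these libraries, which may be technical. DMSO against unstimulated cells is called the cytokine contrast, belinostat against DMSO the belinostat contrast, and belinostat against unstimulated cells the residual contrast. The contrasts share libraries, and their values are therefore given side by side and not correlated.

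Libraries held 7077321 to 11352032 counts in unstimulated, 6488975 to 8066642 in DMSO and 4661678 to 6370845 in belinostat cells, and 11.3% of peaks had no count in unstimulated library 6 against 0.384% to 5.35% in the other libraries. Start peaks of the 9 fibroblast markers summed to 142 to 167 CPM (counts scaled to a common library size) in unstimulated, 94.1 to 134 in DMSO and 86.2 to 134 in belinostat libraries, all 9 having a peak. For other cell types the sums ranged from 20.3 to 33.9 CPM over 7 of 7 epithelial markers, from 10.7 to 23.3 over 3 of 6 immune markers, from 10.9 to 17.5 over 5 of 6 endothelial markers and from 40.8 to 78.6 over 5 of 5 smooth muscle markers. PTPRC, SPI1 and CDH5 had no start peak, and most of the immune sum lay at CD68. Median sums in unstimulated, DMSO and belinostat cells were 153, 111 and 106 CPM for fibroblast, 73.2, 57.3 and 51.3 for smooth muscle and 16.3, 13.7 and 13.3 for endothelial markers. They were 18.9, 18.5 and 13.3 CPM for immune markers, where CD68 averaged 17.4 in DMSO and 11.6 in belinostat cells, and 28.0, 27.4 and 25.1 for epithelial markers. Strong peaks weigh most in such sums, and not every marker moved with them. In the same order PRRX1 averaged 1.48, 1.82 and 1.99 CPM, MYH11 1.13, 1.58 and 1.60 and DES 1.35, 1.85 and 2.10. The stronger COL1A2 averaged 45.2, 32.7 and 29.9 CPM and ACTA2 37.1, 29.3 and 24.8. Most members were also lower in DMSO than in unstimulated cells with TMM factors, the scaling explained below, and the part of cell composition in the results was not tested. In bulk chromatin, fewer open cells and less open chromatin per cell cannot be told apart.

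A trend with level ran over the whole table. When all peaks were ranked by average level and cut into 5 equal classes, 42.4% of the top class were lower in DMSO than in unstimulated cells and 1.19% were higher, whereas in the bottom class 0.199% were lower and 12.2% higher. Member peaks lay toward the accessible end, with 53 of the 126 in that top class and a median average level of 1.07 log2 CPM against 0.20 for all peaks. Fold changes are therefore given with TMM factors, the scaling used throughout (factors that align the bulk of the peaks). Many are also given with loess offsets, which remove the trend with level in each library. A value without a loess figure beside it is the TMM value, and its result with loess offsets is given only where the text says so. The plot of change against average level shows this trend and where the member peaks lay on it.

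**Figure D1:**
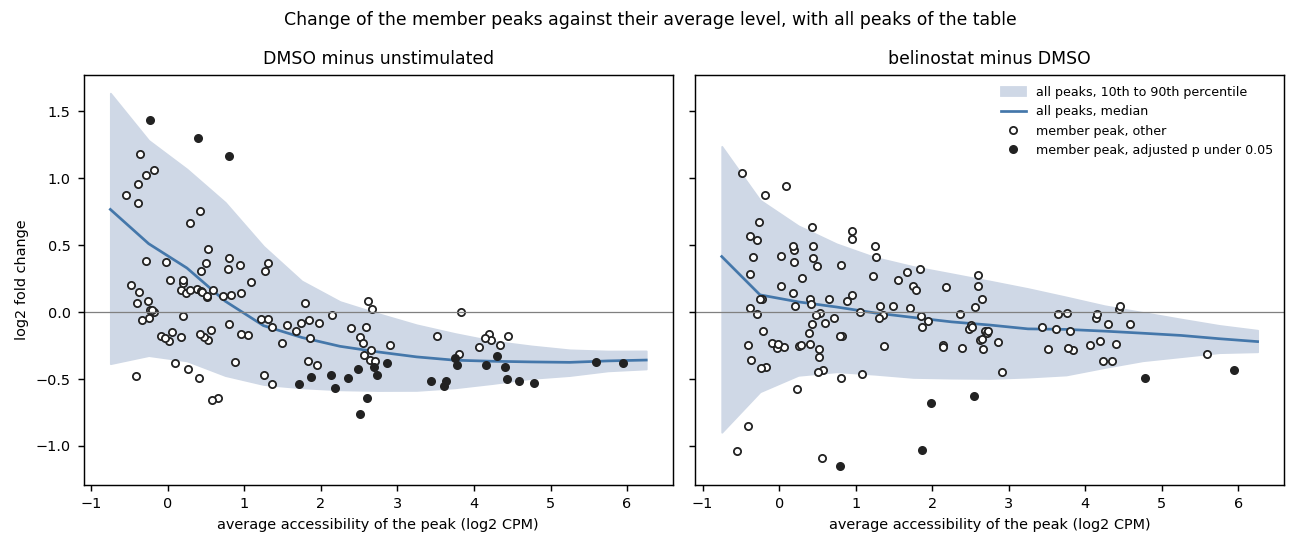
Log2 fold change (vertical axis) against average accessibility in log2 CPM (horizontal axis) for the 126 member peaks (points; filled where the edgeR adjusted p was under 0.05), in the cytokine (left) and belinostat (right) contrasts, with the median (line) and a band of percentiles of all peaks, named in the key. All 24 member peaks that were lower in DMSO cells were in the top class by level, where the median of all peaks was also below 0, and the 3 CA12 peaks that were higher lay below that class.

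Of the 126 member peaks, edgeR's quasi-likelihood test (adjusted p under 0.05 over all peaks) called 3 higher and 24 lower in the cytokine contrast, where 9.51% of all peaks were called higher and 9.73% lower. In the belinostat contrast 0 were called higher and 6 lower, against 0.607% and 1.75% of all peaks. At an unadjusted p under 0.05, 6 member peaks were higher and 15 lower under belinostat, and the shares of all peaks at that threshold were not computed. DESeq2 also called 0 higher, against 0.850% of the peaks it tested. In the residual contrast 5 were higher and 36 lower, against 16.8% and 13.7% of all peaks. Within the top class by level, 24 of 53 member peaks (45.3%) were lower in DMSO cells, close to the 42.4% of all peaks there, and 5 of 53 (9.43%) were lower under belinostat against 7.51%. The share lower in DMSO cells was thus near that of equally accessible peaks. With loess offsets, 2 member peaks were higher and 1 lower in the cytokine contrast, against 2.14% and 1.77% of all peaks, and 4 were lower under belinostat, against 1.42%. The cytokine count was 16 without unstimulated library 6, and the belinostat count was 3 without DMSO library 3 and 10 without belinostat library 1.

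The DNA of 5 peaks on which the results below turn is printed here. They were among the named peaks called in the most contrasts, outside untranslated regions. Each is the central 300 bases of the peak, read from the plus strand of hg38, while ENG is transcribed from the minus strand. Capitals mark words of binding motifs found on either strand, which describe the letters and show no binding.
ENG at 25.9 kb, chr9:127828575-127828874: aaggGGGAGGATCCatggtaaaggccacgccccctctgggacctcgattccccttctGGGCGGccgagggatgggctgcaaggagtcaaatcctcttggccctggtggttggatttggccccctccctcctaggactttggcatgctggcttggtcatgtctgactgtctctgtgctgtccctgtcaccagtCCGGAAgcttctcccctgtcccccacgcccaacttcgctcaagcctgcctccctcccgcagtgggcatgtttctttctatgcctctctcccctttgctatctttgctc
CD44 at 22.4 kb, chr11:35161138-35161437: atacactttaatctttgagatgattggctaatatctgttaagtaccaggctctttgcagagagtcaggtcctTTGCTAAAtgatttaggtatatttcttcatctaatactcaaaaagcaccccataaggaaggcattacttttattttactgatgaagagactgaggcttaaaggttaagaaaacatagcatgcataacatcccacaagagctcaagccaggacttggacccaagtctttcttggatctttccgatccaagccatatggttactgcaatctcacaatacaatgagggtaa
ENG at 15.9 kb, chr9:127838606-127838905: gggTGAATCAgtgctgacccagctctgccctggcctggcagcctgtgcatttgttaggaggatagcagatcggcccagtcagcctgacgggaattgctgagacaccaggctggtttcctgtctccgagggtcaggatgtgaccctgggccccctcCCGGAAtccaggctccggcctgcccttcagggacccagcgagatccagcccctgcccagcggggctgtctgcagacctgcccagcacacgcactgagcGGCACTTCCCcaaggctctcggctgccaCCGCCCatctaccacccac
VCAM1 at 15.3 kb, chr1:100734883-100735182: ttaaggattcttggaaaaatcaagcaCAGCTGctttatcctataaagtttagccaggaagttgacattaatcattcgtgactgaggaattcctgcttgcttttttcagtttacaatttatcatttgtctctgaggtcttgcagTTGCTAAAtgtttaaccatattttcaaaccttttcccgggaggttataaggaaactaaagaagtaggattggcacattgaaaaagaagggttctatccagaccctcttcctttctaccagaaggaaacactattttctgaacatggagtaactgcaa
CD44 at 52.1 kb, chr11:35190883-35191182: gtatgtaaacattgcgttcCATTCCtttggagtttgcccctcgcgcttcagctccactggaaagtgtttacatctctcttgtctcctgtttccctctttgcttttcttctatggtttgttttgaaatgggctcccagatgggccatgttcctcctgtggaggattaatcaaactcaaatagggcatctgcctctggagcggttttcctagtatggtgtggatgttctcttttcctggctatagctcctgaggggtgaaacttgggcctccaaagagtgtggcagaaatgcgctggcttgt
The words searched were AP-1 (TGANTCA), TEAD (GGAATG), CEBP (TTGCNNAA), GC box (GGGCGG), ETS (CCGGAA), GLI (GGGTGGTC), RUNX (TGTGGT), E-box (CAGCTG) and a pair for NF-kB, namely GGGA and CC with 4 bases between them, or GGG and TTTCC with 2 bases between them. The NF-kB words can match the same bases. Both ENG windows held the GGGA form of the NF-kB word, a GC box and an ETS word, and the window at 15.9 kb also held an AP-1 word. Of 150768 central windows of 300 bases over all peaks, 19.3% held that NF-kB word, 15.9% a GC box, 5.95% an ETS word and 20.8% an AP-1 word. The CEBP word stood in CD44 at 22.4 kb and in VCAM1, and was present in 14.8% of all windows. VCAM1 also held an E-box (25.1% of windows), and CD44 at 52.1 kb a TEAD word (22.4%).

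Summed over the peaks of each gene, 8 of the 10 loci were lower and 0 were higher in DMSO than in unstimulated cells, against 62.5% and 10.9% of all protein-coding loci. The exceptions were CA12 and ICAM1. The median log2 fold change was -0.32 over the members and -0.26 over all loci, so the members' median lay close to that of all loci. At an unadjusted p under 0.05, 0 member loci were higher, and DESeq2 called 1 higher and 3 lower, against 19.0% and 11.7% of all loci. In the belinostat contrast ENG alone was lower and 0 loci were higher, against 2.04% and 0.125% of all loci. No member locus was higher at an unadjusted p under 0.05 or by DESeq2, which called 2.37% of the loci it tested higher. In the residual contrast the same 8 loci as in the cytokine contrast were lower and 0 higher, against 66.8% and 13.0% of all loci, with 0 higher at an unadjusted p under 0.05. DESeq2 called 1 higher there, against 27.1% of all loci. Loess offsets gave CA12 and NT5E higher and PDPN, THY1, VCAM1 and ENG lower, against 20.7% and 17.9% of all loci. With loess offsets the cytokine calls were CA12 higher and THY1 and VCAM1 lower, against 14.2% and 8.24% of all loci, and no locus was called under belinostat, against 2.64% higher and 2.62% lower. Library totals and DESeq2 also ended the cytokine calls of PDPN, FAP, NT5E, CD44 and TNFRSF11B.

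**Figure D2:**
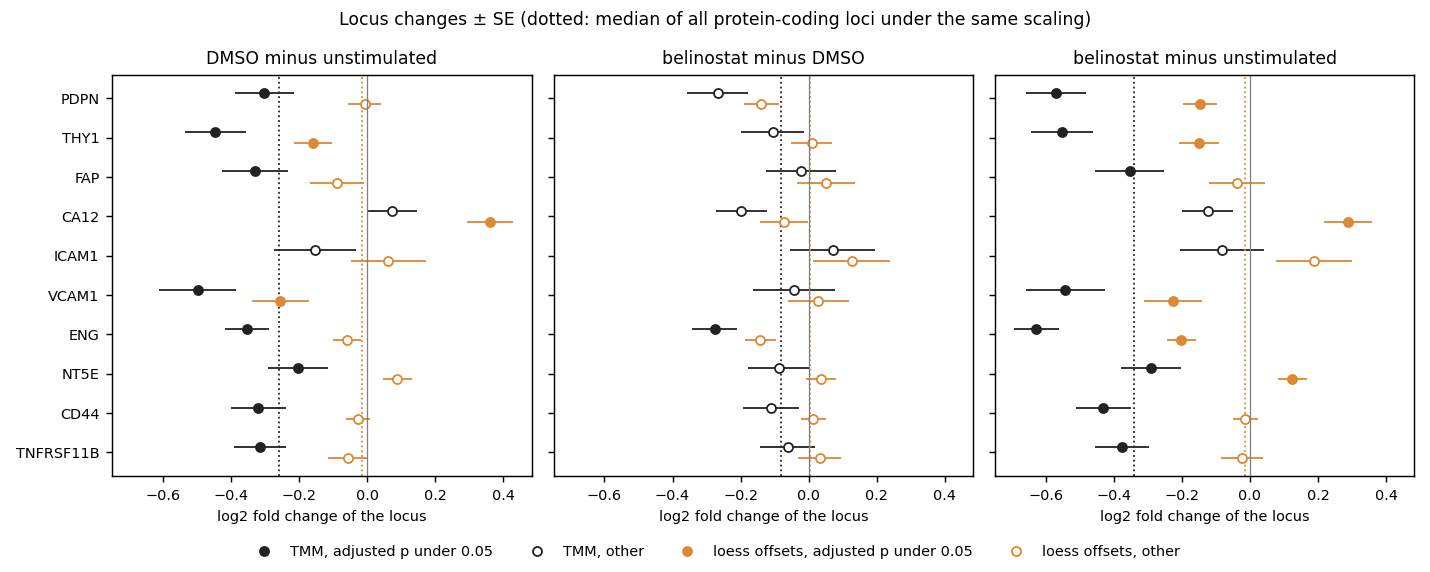
Log2 fold change ± SE of each locus (horizontal axis) in the 3 contrasts, with TMM factors (black) and with loess offsets (orange). Filled points passed the edgeR test, and dotted lines give the median of all protein-coding loci under the same scaling. With TMM 8 of 10 loci passed below 0 in the left panel, while with loess offsets THY1 and VCAM1 passed below 0 and CA12 above it.

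Accessibility per kb of peak, the scale on which loci can be compared, averaged 26.4 ± 3.06 CPM per kb (SD, n = 6) at PDPN in unstimulated cells and 22.3 ± 1.15 at ENG. THY1 followed with 17.6 ± 1.15, TNFRSF11B with 14.9 ± 0.697, NT5E with 14.5 ± 0.916 and CD44 with 12.2 ± 0.819. ICAM1 had 9.02 ± 0.617, VCAM1 7.91 ± 0.831, FAP 6.77 ± 0.552 and CA12 6.62 ± 0.324. TNFRSF11B and NT5E, and FAP and CA12, differed by less than 1 SD of either. In DMSO cells CA12 averaged 6.96 ± 0.737 CPM per kb and FAP 5.40 ± 0.736.

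**Figure D3:**
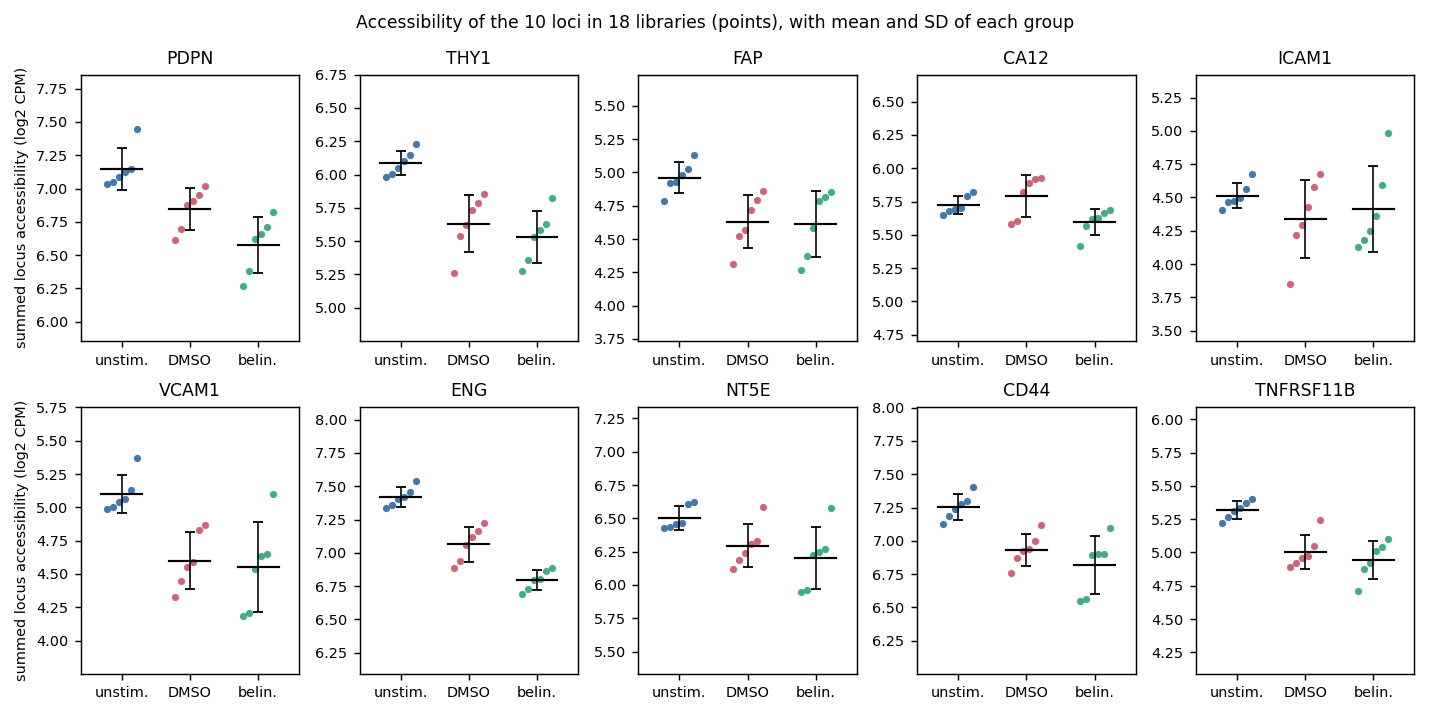
Summed accessibility of each of the 10 loci in log2 CPM (vertical axis, spanning 2 log2 units in each panel) in the 18 libraries (points), with the mean (bar) and SD (whisker) of unstimulated, DMSO and belinostat cells. The groups of unstimulated and DMSO libraries did not overlap at PDPN, THY1, VCAM1, ENG and CD44. The share of all loci without overlap was not computed, and 62.5% of all loci were called lower in this contrast. At FAP, CA12, ICAM1 and NT5E the groups overlapped in every contrast.

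Among the genes of proteins used to sort fibroblasts, the THY1 locus was less accessible in DMSO than in unstimulated cells with both scalings and the PDPN locus with TMM alone of the 2. The paper reports that transcripts of PDPN, THY1 and FAP were raised after the cytokine pulses and a rest, which is RNA and not accessibility. The PDPN locus (chr1:13583465-13617957, plus strand) had a lowest, median and highest level of 130, 137 and 175 CPM in unstimulated, 97.5, 119 and 130 in DMSO and 76.7, 99.3 and 113 in belinostat libraries. Every DMSO library lay below every unstimulated library, and 2 of 6 belinostat libraries lay below all DMSO libraries. The log2 fold change was -0.30 ± 0.087 (SE; edgeR adjusted p = 0.00347) in the cytokine contrast, and -0.01 (adjusted p = 0.931) with loess offsets, and library totals (-0.09, adjusted p = 0.218) and DESeq2 (-0.06, adjusted p = 0.439) ended the call too. In the belinostat contrast it was -0.27 ± 0.089 (adjusted p = 0.0998), and -0.14 (adjusted p = 0.118) with loess offsets. Without belinostat library 1 the belinostat value was -0.32 (adjusted p = 0.00915), which passed. In that fit 22.6% of all loci were called lower under belinostat, against 2.04% with all libraries. Against unstimulated cells the belinostat libraries were lower with both scalings, at -0.57 ± 0.089 (adjusted p = 3.44e-06) and -0.15 (adjusted p = 0.0240 with loess offsets). The start peak of PDPN (the peak at the first base of the gene, or the nearest within 1 kb) was at -0.16 ± 0.11 (adjusted p = 0.308) in the cytokine contrast. A peak over an untranslated exon 33.8 kb from the start fell by 0.55 ± 0.13 on the log2 scale (SE; adjusted p = 0.00130), and was at -0.21 (adjusted p = 0.217) with loess offsets.

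THY1 (chr11:119415476-119424985, minus strand) encodes the glycoprotein CD90. Its locus had a lowest, median and highest level of 62.9, 67.2 and 74.7 CPM in unstimulated, 38.0, 51.0 and 57.5 in DMSO and 38.5, 46.8 and 56.4 in belinostat libraries. Unstimulated libraries lay above all others, and the stimulated groups overlapped. The locus fell by 0.45 ± 0.089 (SE) on the log2 scale in the cytokine contrast (edgeR adjusted p = 0.000387) and passed with loess offsets too (-0.16, adjusted p = 0.0403). Belinostat against DMSO gave -0.11 ± 0.093 (adjusted p = 0.510), and 0.01 with loess offsets. No peak lay within 1 kb of the first base of THY1 in GENCODE. The peak over its canonical start, 2.27 kb inside the annotated gene, overlaps the lncRNA USP2-AS1 and had a median of 26.0 CPM in unstimulated, 19.3 in DMSO and 18.3 in belinostat cells. It was at -0.50 ± 0.11 (adjusted p = 0.00111) in the cytokine contrast, a call that was lost with loess offsets (-0.13, adjusted p = 0.289).

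FAP (chr2:162170684-162245151, minus strand) had a lowest, median and highest level of 27.2, 30.7 and 34.8 CPM in unstimulated, 19.6, 24.8 and 28.7 in DMSO and 19.0, 25.5 and 28.7 in belinostat libraries. Unstimulated and DMSO libraries overlapped, with 4 of 6 DMSO libraries below all unstimulated ones. The locus fell by 0.33 ± 0.098 (SE) on the log2 scale in the cytokine contrast (edgeR adjusted p = 0.00407), and was at -0.09 (adjusted p = 0.431) with loess offsets. The belinostat value was -0.02 ± 0.10 (adjusted p = 0.913) and turned to 0.05 with loess offsets and to 0.06 with library totals. Its cytokine peak with the smallest p lay over a coding exon 2.34 kb from the start and was at -0.57 ± 0.18 (adjusted p = 0.0200). That call was lost with loess offsets (-0.34, adjusted p = 0.263), with DESeq2 and with library totals, and without any of unstimulated libraries 1, 4 and 5 or DMSO library 1 (-0.53 to -0.44, adjusted p of 0.0515 to 0.0837). The peak at the FAP start was at -0.28 ± 0.16 (adjusted p = 0.187).

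CD44, the hyaluronan receptor (chr11:35138882-35232402, plus strand), carried 3 of the 6 member peaks that were lower under belinostat. At the intron peak 22.4 kb from the start (chr11:35160956-35161620), whose central bases with the CEBP word are printed above, the lowest, median and highest levels were 3.14, 4.88 and 6.54 CPM in unstimulated, 2.48, 3.36 and 4.30 in DMSO and 0.832, 1.71 and 2.52 in belinostat libraries. In 5 of 6 belinostat libraries it lay below all DMSO libraries, and in all 6 below the unstimulated ones. The log2 fold change was -1.03 ± 0.23 (SE; edgeR adjusted p = 0.00192) in the belinostat contrast and -0.96 (adjusted p = 0.00454) with loess offsets. In the residual contrast it was -1.52 ± 0.22 (adjusted p = 4.72e-09) and came to -1.27 under loess offsets (adjusted p = 5.08e-06). The cytokine contrast gave -0.49 ± 0.18 (adjusted p = 0.0390), a call that was lost with loess offsets (-0.30, adjusted p = 0.316) and without any of 8 libraries, namely unstimulated 1, 2, 5 and 6 and DMSO 2, 4, 5 and 6 (-0.49 to -0.38, adjusted p of 0.0532 to 0.137).

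Its neighbour 19.9 kb from the start and a peak over a coding exon at 76.2 kb, which overlaps the lncRNA CD44-AS1, were also lower under belinostat. They fell outside the rule for named peaks and were chosen after their values were seen. The former had a median of 6.48 CPM in unstimulated, 5.85 in DMSO and 3.86 in belinostat cells and was at -0.63 ± 0.17 (SE; edgeR adjusted p = 0.0246), and at -0.53 (adjusted p = 0.0517) with loess offsets. The latter had medians of 4.42, 3.66 and 2.47 CPM and was at -0.68 ± 0.20 (adjusted p = 0.0404), and at -0.60 (adjusted p = 0.0777) with loess offsets. In each, 5 of 6 belinostat libraries lay below all DMSO libraries. Leaving out any of 6 libraries (DMSO 2, 3 and 6 and belinostat 2, 3 and 5) ended the former call (-0.62 to -0.52, adjusted p of 0.0512 to 0.132). Leaving out any of 8 (those 6, unstimulated 2 and belinostat 6) ended the latter (-0.70 to -0.55, adjusted p of 0.0521 to 0.181).

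Over the whole CD44 locus, the lowest, median and highest levels were 140, 153 and 169 CPM in unstimulated, 108, 122 and 138 in DMSO and 93.1, 119 and 137 in belinostat libraries. Unstimulated libraries lay above all DMSO libraries, which overlapped with the belinostat libraries. The locus fell in the cytokine contrast with TMM (-0.32 ± 0.080, SE, edgeR adjusted p = 0.00128) and was at -0.03 (adjusted p = 0.583) with loess offsets. Under belinostat the sum was at -0.11 ± 0.081 (adjusted p = 0.426), and at 0.01 with loess offsets. The start peak of CD44, which overlaps the divergent lncRNA CD44-DT, was at -0.19 ± 0.12 (adjusted p = 0.243) in the cytokine and -0.05 ± 0.12 (adjusted p = 0.878) in the belinostat contrast. The cytokine peak of CD44 with the smallest p, in an intron 52.1 kb from the start, fell by 0.51 ± 0.12 on the log2 scale (SE; adjusted p = 0.00120), and was at -0.14 (adjusted p = 0.303) with loess offsets.

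**Figure D4:**
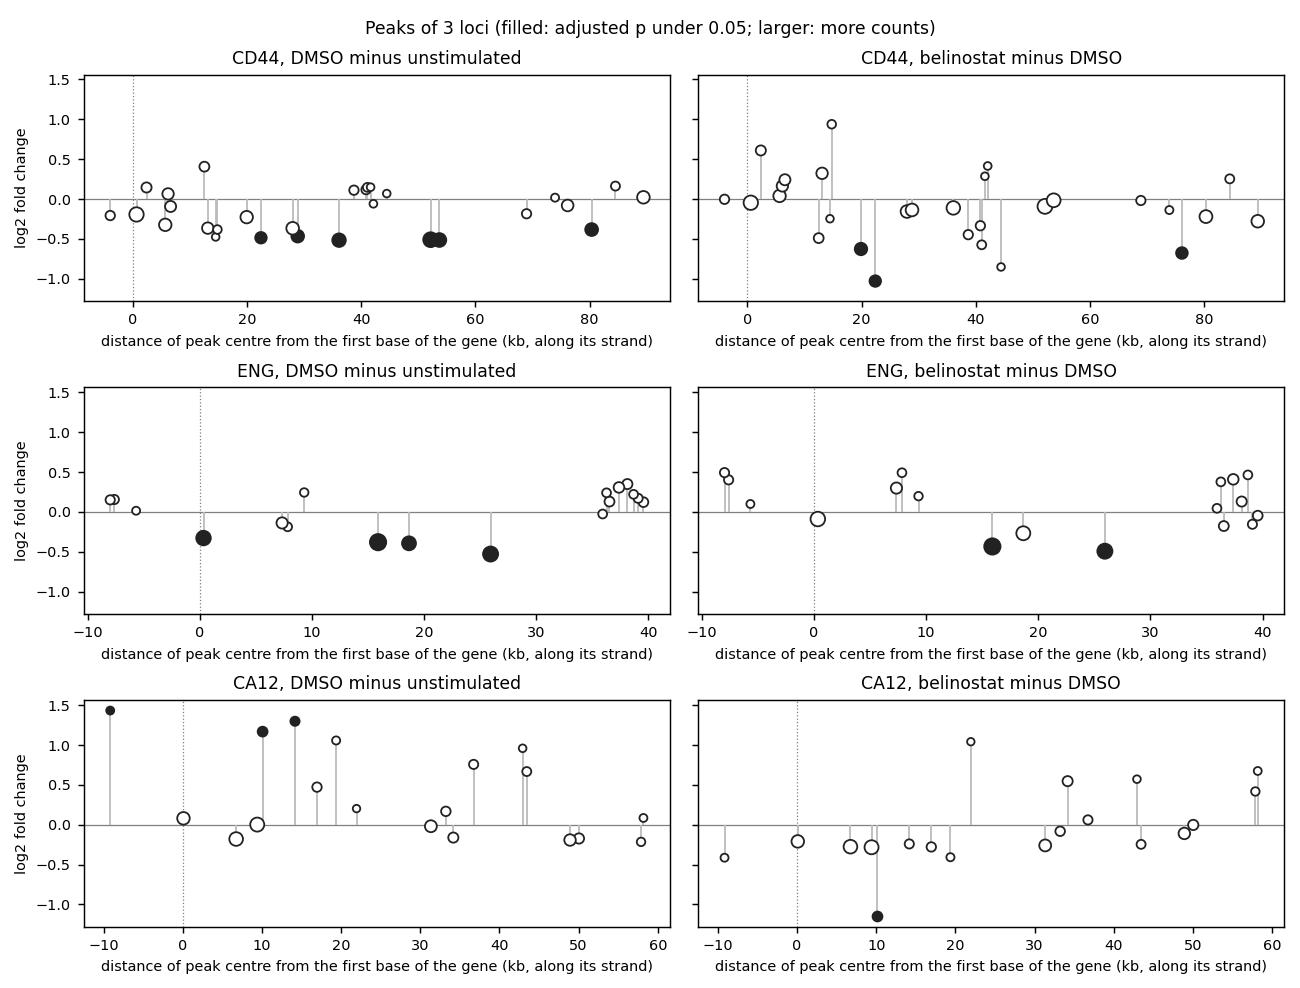
Log2 fold change (vertical axis) of each peak against the distance of its centre from the first base of the gene in kb along the gene's strand (horizontal axis) for CD44, ENG and CA12, in the cytokine (left) and belinostat (right) contrasts. Filled points passed the edgeR test and larger points had more counts. Of the 6 peaks lower under belinostat, 3 lay in CD44, 2 in ENG and 1 in CA12, none of them at a start peak.

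ENG (chr9:127815013-127854658, minus strand), the TGF-β co-receptor endoglin, was lower at each step with TMM. Its locus had a lowest, median and highest level of 162, 170 and 186 CPM in unstimulated, 118, 136 and 149 in DMSO and 103, 111 and 118 in belinostat libraries. Unstimulated and DMSO libraries did not overlap, and 5 of 6 belinostat libraries lay below all DMSO libraries. The log2 fold change was -0.35 ± 0.065 (SE; edgeR adjusted p = 0.000267) in the cytokine contrast and -0.28 ± 0.066 (adjusted p = 0.0219) in the belinostat contrast. With loess offsets they were -0.06 (adjusted p = 0.304) and -0.14 (adjusted p = 0.0599). The belinostat call was also lost without any of DMSO libraries 2, 3 and 6 and belinostat libraries 3, 4 and 5 (-0.28 to -0.24, adjusted p of 0.0532 to 0.0980). The residual contrast passed with both scalings, at -0.63 ± 0.066 (adjusted p = 4.49e-08) and -0.20 (adjusted p = 0.000762 with loess offsets).

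Both ENG peaks called under belinostat lay in introns, and both are printed above. The peak 15.9 kb from the start (chr9:127838371-127839141) had the highest average level of all member peaks, with 67.9, 78.1 and 92.6 CPM as lowest, median and highest level in unstimulated, 53.8, 61.0 and 66.2 in DMSO and 42.2, 43.9 and 49.5 in belinostat libraries. The 3 groups did not overlap. It was at -0.38 ± 0.10 (SE; edgeR adjusted p = 0.00436) in the cytokine contrast, which turned to 0.05 with loess offsets. Under belinostat it was at -0.43 ± 0.10 (adjusted p = 0.00468) and passed with loess offsets too (-0.20, adjusted p = 0.0297).

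At the ENG peak 25.9 kb from the start (chr9:127828124-127829325) the lowest, median and highest levels were 34.5, 37.4 and 39.3 CPM in unstimulated, 20.0, 26.1 and 29.0 in DMSO and 11.9, 18.6 and 24.7 in belinostat libraries. Unstimulated and DMSO libraries did not overlap, and 5 of 6 belinostat libraries lay below all DMSO libraries. It fell by 0.53 ± 0.11 (SE) on the log2 scale in the cytokine contrast (edgeR adjusted p = 0.000316), and was at -0.15 (adjusted p = 0.180) with loess offsets. Under belinostat it was at -0.49 ± 0.12 (adjusted p = 0.00514) and came to -0.32 under loess offsets (adjusted p = 0.00506). Without belinostat library 4 the belinostat value was -0.39 (adjusted p = 0.0528). The ENG start peak was at -0.33 ± 0.11 (adjusted p = 0.0311) in the cytokine contrast, a call that turned to 0.04 with loess offsets and was lost without any of unstimulated libraries 1, 3, 4 and 6 or DMSO libraries 1 and 5 (-0.32 to -0.28, adjusted p of 0.0528 to 0.0937). Under belinostat the start peak was at -0.09 ± 0.12 (adjusted p = 0.738).

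NT5E, the ectoenzyme CD73 (chr6:85449584-85495791, plus strand), had a lowest, median and highest level of 85.6, 87.8 and 98.1 CPM in unstimulated, 69.4, 77.0 and 96.0 in DMSO and 61.3, 75.2 and 95.1 in belinostat libraries. All groups overlapped. The cytokine value of -0.20 ± 0.088 (SE; edgeR adjusted p = 0.0392) turned to 0.09 (adjusted p = 0.126) with loess offsets and to 0.01 with library totals. The call was also lost without any of unstimulated libraries 1, 3, 4, 5 and 6 and DMSO libraries 1, 2, 4 and 5 (-0.21 to -0.16, adjusted p of 0.0505 to 0.118). The belinostat value was -0.09 ± 0.090 (adjusted p = 0.575) and 0.04 with loess offsets. In the residual contrast the locus passed below 0 with TMM (-0.29 ± 0.089, adjusted p = 0.00407) and above 0 with loess offsets (0.12, adjusted p = 0.0256), so its direction depended on the scaling. Its cytokine peak with the smallest p lay in an intron 10.0 kb from the start, at -0.34 ± 0.13 (adjusted p = 0.0486), and was at 0.00 with loess offsets. That call was lost without any of 12 libraries, namely unstimulated 1, 2, 3, 4 and 6, DMSO 1, 2, 4 and 6 and belinostat 2, 3 and 6 (-0.36 to -0.25, adjusted p of 0.0512 to 0.189). The NT5E start peak was at -0.17 ± 0.11 (adjusted p = 0.265) in the cytokine contrast.

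CA12, a carbonic anhydrase of the cell surface (chr15:63321378-63381846, minus strand), was the locus with a cytokine value above 0. Its locus had a lowest, median and highest level of 49.8, 51.7 and 56.4 CPM in unstimulated, 47.7, 57.7 and 60.5 in DMSO and 42.5, 49.0 and 51.1 in belinostat libraries. All groups overlapped, with 3 of 6 DMSO libraries above every unstimulated library. The log2 fold change in the cytokine contrast was 0.07 ± 0.074 (SE; edgeR adjusted p = 0.369), which is 0.33 above the median of all loci. It was 0.36 (adjusted p = 0.000593) with loess offsets and 0.29 (adjusted p = 0.00124) with library totals, and turned to -0.40 (adjusted p = 0.0296) with TMM over the weaker peaks. The belinostat value was -0.20 ± 0.075 (adjusted p = 0.139), and -0.07 (adjusted p = 0.605) with loess offsets. In the residual contrast the locus was at -0.12 ± 0.076 (adjusted p = 0.129). It was at 0.29 (adjusted p = 0.00235) with loess offsets and 0.19 (adjusted p = 0.0169) with library totals, so its direction depended on the scaling.

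All 3 member peaks that opened in the cytokine contrast were CA12 peaks. The intron peak 10.1 kb from the start had 0.644, 0.936 and 1.30 CPM as lowest, median and highest level in unstimulated, 1.31, 2.35 and 3.39 in DMSO and 0.555, 0.888 and 1.57 in belinostat libraries. It was higher in every DMSO library than in any unstimulated one, and 4 of 6 belinostat libraries lay below all DMSO libraries. The log2 fold change was 1.17 ± 0.27 (SE; edgeR adjusted p = 0.00127) in the cytokine contrast, -1.15 ± 0.28 (adjusted p = 0.00768) in the belinostat contrast and 0.02 ± 0.34 (adjusted p = 0.971) in the residual contrast. The cytokine and belinostat calls passed with loess offsets too, at 1.09 (adjusted p = 0.00844) and -1.16 (adjusted p = 0.00699). This peak held 183 counts over all 18 libraries, and without DMSO library 3 the belinostat value was -1.0 (adjusted p = 0.0536).

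The other opened CA12 peaks were chosen after their values were seen. At 14.2 kb, in an intron, medians were 0.487 CPM in unstimulated, 1.07 in DMSO and 1.17 in belinostat cells. The cytokine value there was 1.30 ± 0.35 (SE; edgeR adjusted p = 0.00512), and 1.08 (adjusted p = 0.0547) with loess offsets. At 9.2 kb upstream, where the lncRNA LINC02568 is annotated, medians were 0.276, 0.733 and 0.574 CPM. The cytokine value there was 1.43 ± 0.45 (adjusted p = 0.0174), 1.04 (adjusted p = 0.160) with loess offsets and 1.22 (adjusted p = 0.0655) without DMSO library 6. These peaks held 130 and 71 counts. The belinostat values were -0.24 ± 0.31 (adjusted p = 0.727) and -0.41 ± 0.41 (adjusted p = 0.633). The peak at 14.2 kb was also called higher in the residual contrast, a call that was lost with loess offsets (0.79, adjusted p = 0.174). The CA12 start peak was at 0.08 ± 0.15 (adjusted p = 0.742) in the cytokine contrast.

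**Figure D5:**
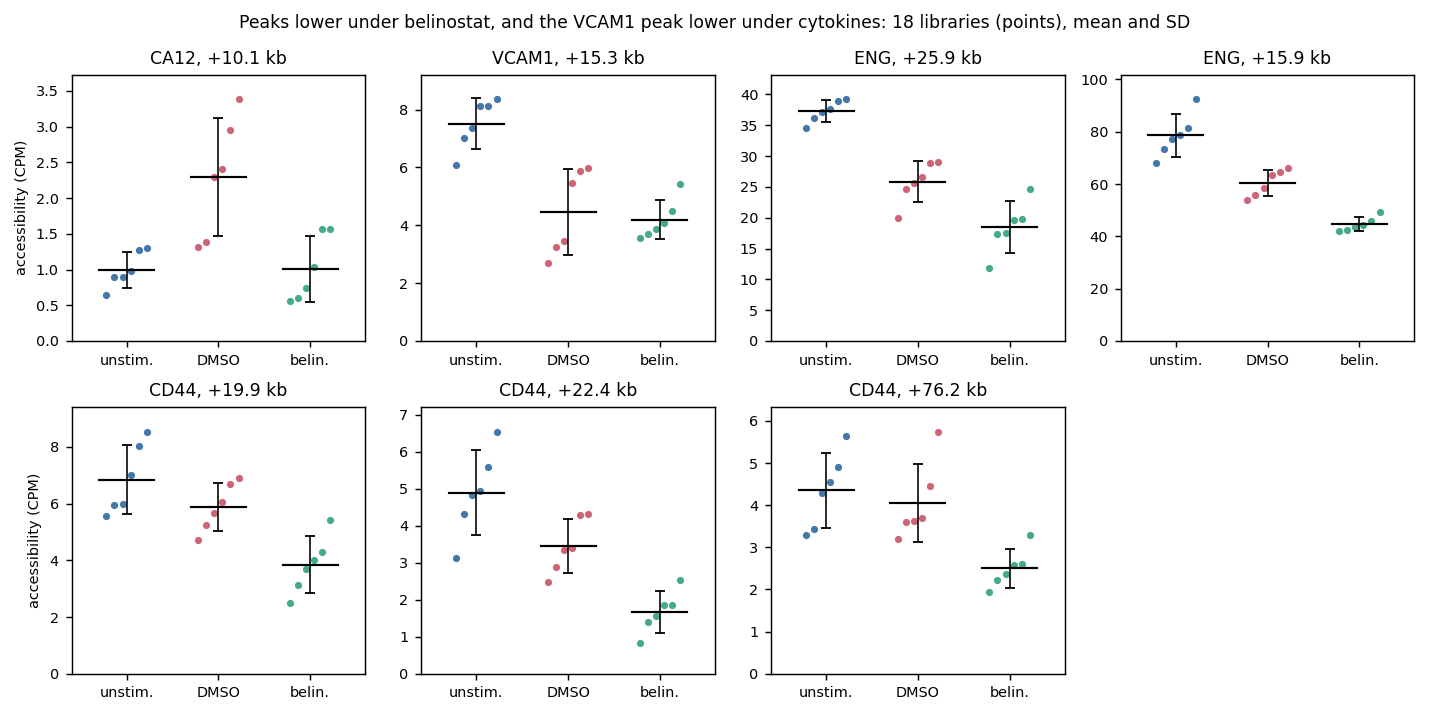
Accessibility in CPM (vertical axis, from 0) in the 18 libraries (points), with the mean (bar) and SD (whisker) of unstimulated, DMSO and belinostat cells, for the 6 member peaks lower under belinostat and for the VCAM1 peak lower in DMSO cells. At the CA12 peak belinostat libraries spanned 0.555 to 1.57 CPM and unstimulated libraries 0.644 to 1.30. At the ENG peaks and the CD44 peak at 22.4 kb every belinostat library lay below the means of both other groups.

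The adhesion receptors come next. VCAM1 (chr1:100719742-100739045, plus strand) had a lowest, median and highest level of 31.4, 32.9 and 41.1 CPM in unstimulated, 19.8, 23.5 and 28.9 in DMSO and 17.9, 23.8 and 34.1 in belinostat libraries. DMSO libraries lay below all unstimulated libraries, and belinostat libraries overlapped with both groups. The locus fell by 0.50 ± 0.11 (SE) on the log2 scale in the cytokine contrast (edgeR adjusted p = 0.000693), the largest fall of the 10 loci with TMM, and passed with loess offsets too (-0.26, adjusted p = 0.0279). The belinostat value was -0.04 ± 0.12 (adjusted p = 0.855) and 0.03 with loess offsets.

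Within VCAM1, the peak over a coding exon and an annotated transcript start 15.3 kb from the gene start (chr1:100734501-100735564) had 6.09, 7.74 and 8.38 CPM as lowest, median and highest level in unstimulated, 2.69, 4.46 and 5.98 in DMSO and 3.58, 3.98 and 5.42 in belinostat libraries. Neither stimulated group overlapped the unstimulated one. It was at -0.76 ± 0.16 (SE; edgeR adjusted p = 0.000308) in the cytokine contrast and at -0.50 (adjusted p = 0.0261) with loess offsets, the only member peak that passed below 0 with both scalings. Belinostat against DMSO gave -0.09 ± 0.18 (adjusted p = 0.824). The VCAM1 start peak was at -0.53 ± 0.20 (adjusted p = 0.0436) in the cytokine contrast, a call that was lost with loess offsets, DESeq2 and library totals and without any of 7 libraries, namely unstimulated 1, 3, 4, 5 and 6 and DMSO 1 and 4 (-0.57 to -0.38, adjusted p of 0.0524 to 0.183).

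ICAM1 (chr19:10271093-10286615, plus strand) had 20.9, 22.1 and 25.3 CPM as lowest, median and highest level in unstimulated, 14.1, 20.3 and 25.2 in DMSO and 17.2, 19.5 and 31.3 in belinostat libraries. The groups overlapped in all contrasts. The cytokine value was -0.15 ± 0.12 (SE; edgeR adjusted p = 0.249) and turned to 0.06 with loess offsets, while TMM over the weaker peaks gave -0.62 (adjusted p = 0.00454). The belinostat value was 0.07 ± 0.12 (adjusted p = 0.763), which turned to -0.02 with TMM over the weaker peaks. No ICAM1 peak was called in any contrast. Its start peak, which overlaps the lncRNA LIMASI, was at -0.12 ± 0.16 (adjusted p = 0.627) in the cytokine and -0.27 ± 0.18 (adjusted p = 0.446) in the belinostat contrast. A p above the threshold does not show that ICAM1 was the same in the groups.

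TNFRSF11B (chr8:118923557-118951885, minus strand), the secreted member, had a lowest, median and highest level of 37.0, 39.7 and 42.1 CPM in unstimulated, 29.3, 31.0 and 37.6 in DMSO and 25.9, 31.0 and 34.1 in belinostat libraries. In 5 of 6 DMSO libraries it lay below all unstimulated libraries, and every belinostat library did. The cytokine value was -0.31 ± 0.077 (SE; edgeR adjusted p = 0.00108) and -0.06 (adjusted p = 0.512) with loess offsets. The belinostat value was -0.06 ± 0.080 (adjusted p = 0.668) and 0.03 with loess offsets. Its start peak, the only one of its 6 peaks called in the cytokine contrast, was at -0.40 ± 0.12 (adjusted p = 0.0102) and at -0.04 with loess offsets.

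By place, 5 of the 76 intron peaks and 1 of the 22 exon peaks of the members were lower under belinostat, and no call fell on the 15 peaks at an annotated transcript start or the 13 upstream peaks, beside 1.75% of all peaks at any place. In the cytokine contrast 7 of those 15 peaks at a transcript start, 11 of 76 intron peaks, 4 of 22 exon peaks and 2 of 13 upstream peaks were lower, and 2 intron peaks and 1 upstream peak were higher, beside 9.73% and 9.51% of all peaks at any place. All 24 lower peaks were in the top class by level, where 42.4% of all peaks were lower. Whether the places differed was not tested, and shares of all peaks by place were not computed.

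Other genes around the members were counted by the same locus test. Of 14 other mesenchymal surface proteins, 12 fell in the cytokine contrast with TMM, where 62.5% of all loci were lower, with a median log2 fold change of -0.30 against -0.26 for all loci. With loess offsets 3 rose and 2 fell, against 14.2% and 8.24% of all loci. The rises with loess offsets were the peptidases MME (0.41 ± 0.058, SE, edgeR adjusted p = 4.18e-05) and ANPEP (0.24 ± 0.068, adjusted p = 0.0132) and the fibronectin receptor subunit ITGA5 (0.12 ± 0.038, adjusted p = 0.0212), which was lower with TMM (-0.17 ± 0.076, adjusted p = 0.0457). The growth factor receptor PDGFRB and the integrin subunit ITGB1 fell with both scalings, at -0.40 ± 0.070 (adjusted p = 0.000198) and -0.41 ± 0.083 (adjusted p = 0.000421) with TMM. Under belinostat 2 fell with both scalings, against 2.04% of all loci lower with TMM and 2.62% with loess offsets. With TMM these were MME at -0.34 ± 0.090 (adjusted p = 0.0431) and ITGA5 at -0.35 ± 0.079 (adjusted p = 0.0146).

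Of 23 ligands, enzymes and receptors that work with the members, 5 rose and 10 fell in the cytokine contrast with TMM, against 10.9% and 62.5% of all loci. With loess offsets 8 rose and 1 fell, against 14.2% and 8.24%. TNFSF11, which encodes RANKL, rose by 0.24 ± 0.11 (SE; edgeR adjusted p = 0.0396) and its receptor gene TNFRSF11A by 0.42 ± 0.12 (adjusted p = 0.00260) on the log2 scale. Of the adenosine receptor genes, ADORA2A rose by 0.29 ± 0.087 (adjusted p = 0.00424) and ADORA2B fell by 0.36 ± 0.086 (adjusted p = 0.000947). TGFBR1, TGFBR2 and BMPR2, receptors that signal with ENG, fell by 0.41 ± 0.088, 0.34 ± 0.081 and 0.36 ± 0.086 (adjusted p of 0.000516, 0.00102 and 0.000983). With loess offsets the calls of ADORA2B and of these receptors were lost (adjusted p of 0.0565 to 0.419). ITGA4, a subunit of the VCAM1 receptor, fell by 0.57 ± 0.094 (adjusted p = 0.000134), and by 0.32 ± 0.078 with loess offsets (adjusted p = 0.00493). ITGAL and ITGAM, leukocyte integrin subunits that bind ICAM1, rose by 0.44 ± 0.12 (adjusted p = 0.00194) and 0.60 ± 0.13 (adjusted p = 0.000504), and the start peak of ITGAM averaged 0.756 CPM in unstimulated and 0.724 in DMSO cells. Under belinostat TNFSF10, which encodes TRAIL, another ligand of osteoprotegerin, fell by 0.57 ± 0.090 (adjusted p = 0.000524), and by 0.50 ± 0.081 with loess offsets (adjusted p = 0.000690). No other of the 23 was called under belinostat, where 2.04% of all loci were lower with TMM and 2.62% with loess offsets.

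Of the 9 receptor chains of the cytokines in the mix, 8 fell with TMM in the cytokine contrast, where 62.5% of all loci were lower. With loess offsets 1 fell (IL1R1, -0.09 ± 0.033, SE, edgeR adjusted p = 0.0432) and 1 rose (TNFRSF1B, 0.27 ± 0.063, adjusted p = 0.00325), against 8.24% and 14.2% of all loci. Under belinostat TNFRSF1A fell by 0.36 ± 0.074 (adjusted p = 0.00865) and by 0.23 ± 0.037 with loess offsets (adjusted p = 0.000589), and TNFRSF1B fell by 0.30 ± 0.070 with TMM (adjusted p = 0.0194). The TNFRSF1B call was lost with loess offsets. Of all loci, 2.04% were lower under belinostat with TMM and 2.62% with loess offsets.

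For each member, the protein-coding locus whose log2 CPM followed it most closely over the 18 libraries was also sought among loci that share no peak with it and average at least 3 log2 CPM. Pearson's r was 0.99 between CD44 and MACF1, 0.98 between VCAM1 and PRIM2, between ENG and SULF2 and between THY1 and CUEDC1, and 0.97 between PDPN and ENSG00000285932 and between NT5E and ARHGAP42. It was 0.96 between TNFRSF11B and LGI1, 0.95 between FAP and SUGCT, 0.86 between ICAM1 and GASK1B and 0.82 between CA12 and SHLD1. These values are a description, since all points share the libraries, their groups and the trend with level.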

How the data were processed

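Chromatin accessibility was measured by ATAC-seq in 18 libraries of 1 cell line. The authors aligned reads to hg38 with the ENCODE pipeline, called peaks with MACS2, made consensus peaks and deposited raw counts of fragments per peak; ChIPseeker 1.34.1 is also named in the submitters' processing notes. The authors scaled on background bins of reads, which peak counts do not hold, so TMM factors from the peaks were used here. Reads outside peaks and the transposase offset were not analysed here. The sequence of 1 named peak and 1 marker gene are not reported here. Starts in the file count from 0 and are printed counted from 1. Groups came from sample titles. Peaks were matched to GENCODE release 44.

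Fits used edgeR 4.0.16 in R 4.3.3 (quasi-likelihood test, 1 mean per group, all 18 libraries in each fit), with Benjamini-Hochberg adjustment over all 334857 peaks or all 19188 loci and a threshold of 0.05. Loci were sums of the counts of their peaks. Levels in log2 CPM used a prior count of 2. The alternatives were library totals, loess offsets (span 0.3, limma 3.58.1), TMM over the weaker peaks, DESeq2 1.42.0, an average above 0 log2 CPM, a replicate block, a window from 3 kb upstream, loci without start peaks, and each library left out. The tests were run on simulated data with the real mean levels and library totals but no trend with level, so that run says nothing on calls that depend on the trend. Named peaks were each member's start peak and its peak with the smallest p in the cytokine and in the belinostat contrast where the adjusted p was under 0.05. The members and lists were chosen with earlier results of these data known. Libraries held 4661678 to 11352032 counts, and small peaks such as those of CA12 rest on few counts.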

Additional observations from a re-analysis of the deposited data

Results flagged for a closer look

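Of 87 groups of 6 libraries tested for a value that stood apart by Dixon's criterion, 7 held one, where chance gives about 1 in 20. At the PDPN locus unstimulated library 6 lay at 7.45 log2 CPM and the others at 7.03 to 7.15. At the VCAM1 locus the same library lay at 5.37 log2 CPM and the others at 4.99 to 5.13. This library also had the largest share of peaks without a count, and the part of that share in these values was not tested. At the THY1 peak 2.27 kb from the start, belinostat library 1 lay at 4.664 log2 CPM against 4.08 to 4.29. At the NT5E start peak DMSO library 3 lay at 4.655 against 4.27 to 4.36. At the CD44 start peak unstimulated library 5 lay at 3.949 against 4.28 to 4.37, and DMSO library 3 at 4.427 against 3.91 to 4.09. At the CD44 peak 52.1 kb from the start, DMSO library 1 lay at 3.807 against 4.41 to 4.66.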

How the results depend on the processing

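The 126 member peaks gave 27 calls in the cytokine contrast and 3 with loess offsets, 15 with library totals, 16 with DESeq2 and 53 with TMM over the weaker peaks, and 16 to 31 with 1 library left out. The 31 came without DMSO library 3, where 10.7% of all peaks were called higher and 11.1% lower, and the 16 without unstimulated library 6, where these shares were 5.52% and 6.18%. Of all peaks, 2.14% were called higher and 1.77% lower with loess offsets, and 16.2% and 3.25% with library totals. With DESeq2 these shares were 4.54% and 5.55%, and with TMM over the weaker peaks 2.21% and 25.0%. In the belinostat contrast 6 calls became 2 with TMM over the weaker peaks and 3 to 10 with 1 library left out. With TMM over the weaker peaks, 0.0815% of all peaks were called higher and 0.834% lower. In the residual contrast 41 calls became 11 with loess offsets and 68 with TMM over the weaker peaks. Of all peaks, 4.41% were higher and 4.34% lower with loess offsets, and 2.61% and 30.8% with TMM over the weaker peaks. The 8 cytokine loci became 3 with loess offsets and 4 with library totals or DESeq2, the 8 residual loci became 5 with DESeq2, and the 1 belinostat locus became 0 with loess offsets or TMM over the weaker peaks and 0 to 2 with 1 library left out. The 2 came without belinostat library 1, where 1.45% of all loci were higher and 22.6% lower under belinostat. In the fits with 0, from 0.526% to 0.912% of all loci were lower. In the cytokine contrast 14.2% of all loci were higher and 8.24% lower with loess offsets. These shares were 18.9% and 19.4% with library totals and 19.0% and 11.7% with DESeq2. In the residual contrast DESeq2 called 27.1% of all loci higher and 21.9% lower. Under belinostat 2.64% were higher and 2.62% lower with loess offsets, and 0% and 0.0208% with TMM over the weaker peaks. The cause of these changes was not tested. With loess offsets the direction turned, giving ICAM1 0.062, NT5E 0.089, ENG at 15.9 kb 0.049, ENG at 0.3 kb 0.036, NT5E at 10.0 kb 0.0023 in the cytokine contrast, then THY1 0.0094, FAP 0.052, VCAM1 0.029, NT5E 0.036, CD44 0.014, TNFRSF11B 0.033 in the belinostat contrast, then CA12 0.29, ICAM1 0.19, NT5E 0.12, PDPN at 0.8 kb 0.15, THY1 at 2.3 kb 0.062, ENG at 0.3 kb 0.10, NT5E at 10.0 kb 0.13, TNFRSF11B at -0.2 kb 0.10 in the residual contrast. With library totals the direction turned, giving ICAM1 0.063, NT5E 0.0094 in the cytokine contrast, then FAP 0.062, VCAM1 0.038, TNFRSF11B 0.029 in the belinostat contrast, then CA12 0.19, ICAM1 0.22, NT5E 0.0032 in the residual contrast. With DESeq2 the direction turned, giving ICAM1 0.089, NT5E 0.035 in the cytokine contrast, then FAP 0.072, VCAM1 0.048, NT5E 0.0019, TNFRSF11B 0.038 in the belinostat contrast, then CA12 0.22, ICAM1 0.25, NT5E 0.037 in the residual contrast. With TMM over the weaker peaks the direction turned, giving CA12 -0.40 in the cytokine contrast, then ICAM1 -0.019 in the belinostat contrast. Without start peaks the direction turned, giving ICAM1 0.0027 in the residual contrast. Leaving out 1 library turned the belinostat value of 3 loci, which ranged over -0.081 to 0.042 at FAP, -0.054 to 0.14 at ICAM1, -0.17 to 0.028 at VCAM1. Of 449 other comparisons of the 65 single values with an alternative, 335 kept their direction and their side of the threshold, 68 lost the call, 7 gained one and 39 turned, and of 1170 with 1 library left out 1083 kept both.

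The 18 correlations of same-numbered libraries ran from -0.133 to 0.106, and 4 libraries correlated best with their own number. They were taken over all peaks, many with few counts, so they cannot show whether the numbers pair the libraries. With a replicate block 2 loci were called in the belinostat contrast (ENG, and PDPN at -0.27, edgeR adjusted p = 0.0404), and 28, 6 and 43 member peaks in the cytokine, belinostat and residual contrasts. Of all loci, 0.297% were then higher and 5.27% lower under belinostat. Of all peaks, 9.66% were higher and 10.3% lower in the cytokine contrast. These shares were 0.568% and 1.86% in the belinostat and 16.2% and 13.8% in the residual contrast. Peaks with few counts limit what could be called, and levels rest on peak counts alone.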
